A study of Mus musculus with 32 samples.

Results

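Tubulin isotype genes encode the alpha and beta subunits of microtubules, and 10 of them were followed here in mouse oocytes: Tuba1a, Tuba1b, Tuba1c and Tuba4a for alpha tubulin, and Tubb2a, Tubb2b, Tubb3, Tubb4b, Tubb5 and Tubb6 for beta tubulin. They were chosen by gene symbol, as the 10 entries that matched these names among 37441 genes in a table of read counts, by a rule that reads names and no measured value. The list of names itself was set with earlier results of these data known. The study sequenced RNA from oocytes of B6 mice, D2 mice and their B6xD2 F1 hybrid at the germinal vesicle (GV) stage, before meiosis resumes, and at metaphase II (MII), when the egg is ready for fertilisation. One female aged 8 to 12 weeks gave the 9 to 20 oocytes behind each library, which therefore stands for 1 animal and not for 1 cell. The libraries numbered 5 for B6 GV, 6 for B6 MII, 5 for D2 GV, 5 for D2 MII, 6 for F1 GV and 5 for F1 MII. All oocytes were stripped of their zona pellucida with acid Tyrode's solution, and GV oocytes were held in IBMX, a phosphodiesterase inhibitor that keeps meiosis from resuming. The labels name no altered allele in any group. Sequencing was done in 2 batches on different HiSeq instruments, with libraries of every group in both. Within batch 2 the library titles carry 2 different prefixes. All B6 libraries of that batch bear 1 prefix and its F1 MII libraries bear the other, while its D2 and F1 GV libraries are spread over both. In batch 2, F1 and B6 MII oocytes therefore differ in title prefix as well as in strain, and the 2 cannot be told apart there.

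Microtubules are polymers of alpha and beta tubulin heterodimers, and in the oocyte they build the meiotic spindle without centrioles. Mammals carry several near-identical genes for each subunit, whose products differ mostly in the acidic tail at the C terminus, where glutamate chains and the terminal tyrosine are added or removed. A fully grown oocyte stops transcription before it matures, so that its transcript pool from GV to MII reflects storage, adenylation and decay of existing mRNA. Tubulin mRNAs are also under autoregulation: when free dimer accumulates, TTC5 binds the first residues of the nascent tubulin chain, and SCAPER and CNOT11 bring the CCR4-NOT deadenylase to the mRNA being translated.

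The start of the coding sequence is shown because it carries this autoregulation signal, with the fourth codon in capitals (GENCODE vM21 transcripts, GRCm38, read 5′ to 3′ on the strand of the gene). The fourth codon was TGC in each of the 4 alpha genes and ATC in each of the 5 beta genes printed.
Tuba1a, chr15:98949847-98953501, minus strand: atgcgtgagTGC
Tuba1b, chr15:98931429-98934390, minus strand: atgcgtgagTGC
Tuba1c, chr15:99029891-99038105, plus strand: atgcgtgagTGC
Tuba4a, chr1:75214972-75221261, minus strand: atgcgcgagTGC
Tubb2a, chr13:34074278-34078008, minus strand: atgcgcgagATC
Tubb2b, chr13:34127008-34130354, minus strand: atgcgagagATC
Tubb3, chr8:123411553-123422015, plus strand: atgagggagATC
Tubb4b, chr2:25222158-25224702, minus strand: atgagggagATC
Tubb5, chr17:35833920-35838301, minus strand: atgagggaaATC

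The last 60 coding bases are shown because they encode the tail by which isotypes differ, and because they show which genes a short read can tell apart. Capitals mark the stop codon. Tubb2a and Tubb2b were nearly the same over this stretch, while Tuba4a and Tubb3 each ended in a sequence of their own. The last codon before the stop was tat, which encodes tyrosine, in Tuba1c, and gag, which encodes glutamate, in Tuba4a.
Tuba1c: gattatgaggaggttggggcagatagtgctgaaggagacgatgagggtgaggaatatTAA
Tuba4a: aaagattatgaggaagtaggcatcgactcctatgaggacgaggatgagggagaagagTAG
Tubb2a: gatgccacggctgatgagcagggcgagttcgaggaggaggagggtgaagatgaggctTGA
Tubb2b: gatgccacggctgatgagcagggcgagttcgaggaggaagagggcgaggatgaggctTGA
Tubb3: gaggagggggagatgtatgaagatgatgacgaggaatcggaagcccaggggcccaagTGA
Tubb4b: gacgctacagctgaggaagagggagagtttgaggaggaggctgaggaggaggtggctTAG
Tubb5: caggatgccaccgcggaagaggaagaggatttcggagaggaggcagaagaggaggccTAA

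Reads were 50 bases long, so each transcript was cut into all its 50-base windows and each window was looked up in every other GENCODE gene. Tuba1a, Tuba1b and Tuba1c shared 72.9%, 73.8% and 61.0% of their windows with another gene, mostly with each other and with gene copies that carry no tubulin name. Tuba1a and Tuba1b were 98.3% identical over their coding sequence. Tubb2a shared 49.6% and Tubb2b 39.3%, mostly with each other, at a coding identity of 96.5%. Tubb4b shared 50.9% of its windows, mostly with the copies Tubb4b-ps1 and Tubb4b-ps2. By contrast Tubb3 and Tubb6 shared no window, Tubb5 shared 0.1% and Tuba4a 1.1%. How reads that fit several genes were counted is not given in the sources used here, so the split among Tuba1a, Tuba1b and Tuba1c and between Tubb2a and Tubb2b is uncertain, and the sums Tuba1a with Tuba1b and Tuba1c, and Tubb2a with Tubb2b, are given beside the single genes.

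Library totals ran from 18696957 to 39688961 counted reads, with a median of 28111141. Values are given as CPM, the reads of a gene per 1000000 counted reads of its library. Every one of the 10 genes was detected in all 32 libraries, at 563 reads or more, the lowest being Tubb3 in a D2 GV library of batch 2. All 10 passed the filter on low counts, as did 19003 genes in all. The oocyte markers checked the labelled cell: the 15 listed genes, among them Gdf9, Bmp15 and Zp3, summed to between 8943 and 15788 CPM in every library. From GV to MII 6 of the 14 tested rose and 5 fell, where 22.9% of all genes tested rose and 29% fell.

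To compare levels between genes, CPM was divided by the length of each gene's merged exons in kilobases (kb). At GV, Tubb4b led with 300 ± 57.3 CPM per kb (SD, n = 16), and lay above Tubb6 in 14 of 16 libraries. A middle group followed, whose neighbours did not differ beyond the spread of their ratio over libraries: Tubb6 (184 ± 92.1 CPM per kb), Tubb2a (150 ± 36.6 CPM per kb), Tubb2b (138 ± 26.1), Tuba1c (131 ± 42.1) and Tuba1b (124 ± 34.7). The place of Tubb6 at GV differed by batch: in batch 1 it had 114 ± 18.4 CPM per kb (n = 9), below the Tuba1 genes, Tubb2a and Tubb2b at 128 to 158, and in batch 2 it had 274 ± 63.6 (n = 7), second to Tubb4b. Tuba1a stood slightly lower than Tuba1b at 105 ± 33.8 CPM per kb, and was below it in 16 of 16 libraries. The lowest were Tubb3 (40.0 ± 21.1 CPM per kb), Tuba4a (39.8 ± 10.5), not separable from each other, and Tubb5 (25.1 ± 8.02).

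At MII the highest levels were those of Tubb4b (205 ± 54.6 CPM per kb, n = 16) and Tubb6 (177 ± 71.4), in that order in both batches. Tubb3 had moved up to 61.6 ± 24.1 CPM per kb, a level that did not differ beyond the spread from Tubb2b (65.6 ± 11.1) above it or Tubb2a (50.9 ± 10.3) below it. Tuba1b (35.6 ± 13.0), Tuba1c (35.0 ± 16.7) and Tuba1a (30.6 ± 13.1) followed, and Tuba4a (14.0 ± 3.07) and Tubb5 (11.3 ± 2.17) were lowest. With the longest transcript as the length in place of merged exons, Tubb4b stayed first and Tubb5 last at both stages, at 392 and 31.5 CPM per kb in GV.

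**Figure D1:**
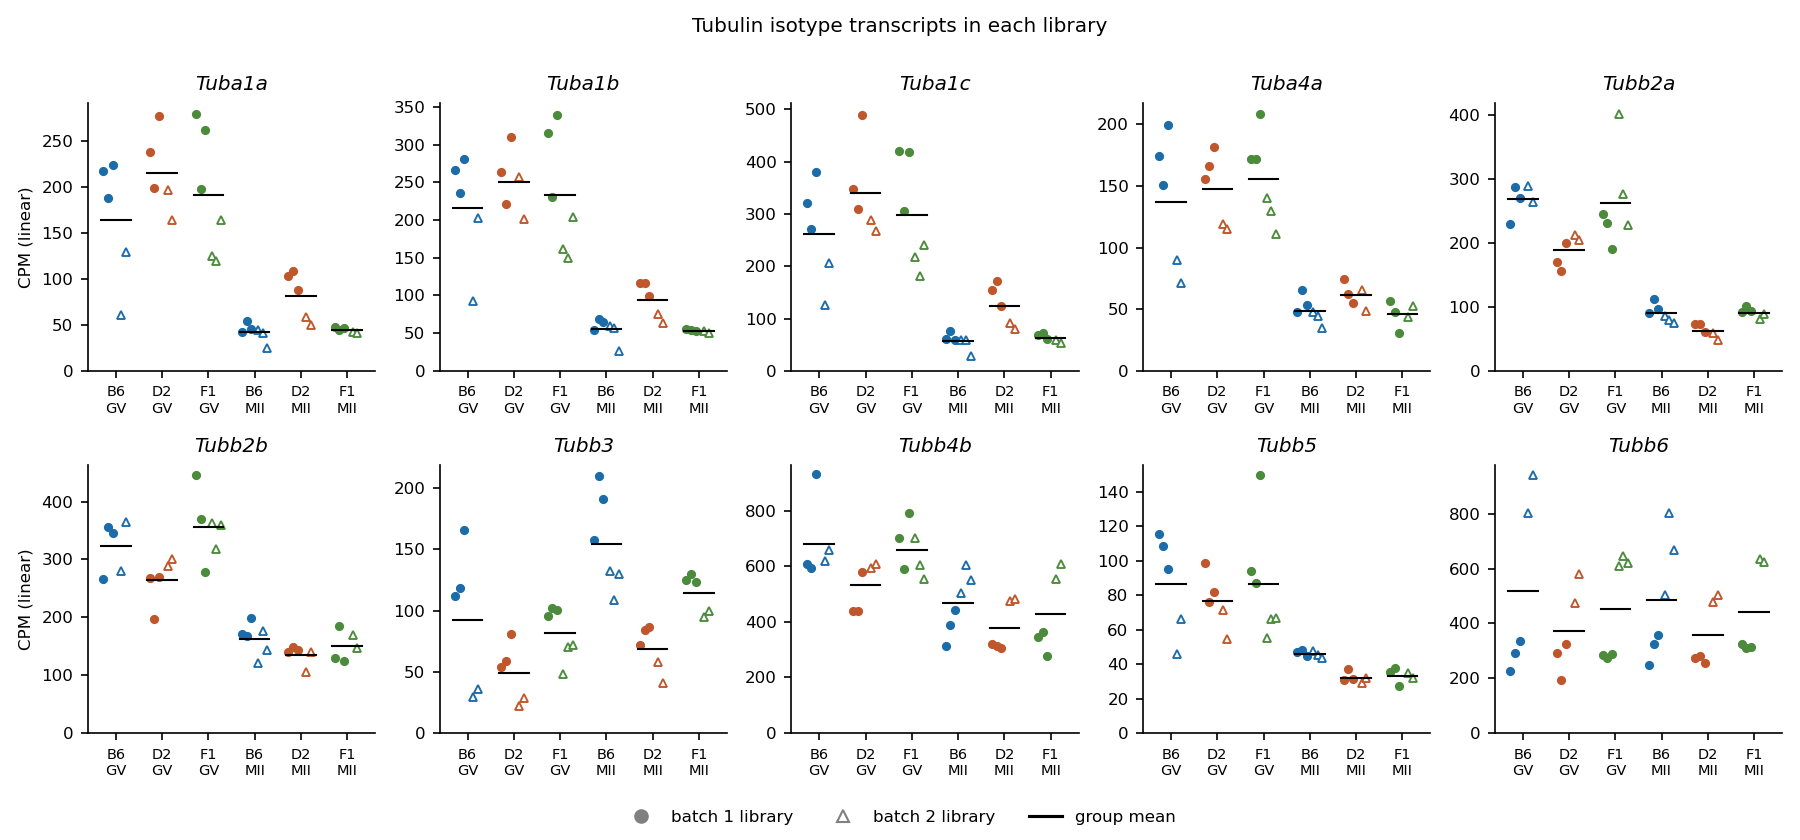
CPM (linear axis from 0) of each of the 10 genes in every library, by strain and stage, with filled circles for batch 1, open triangles for batch 2 and a black line for the group mean. The alpha genes, Tubb2a and Tubb2b sit lower in MII than in GV, the mean of Tubb3 sits higher in MII in each strain, and Tubb6 splits by batch with batch 1 between 194 and 356 CPM and batch 2 between 473 and 941.

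The first comparison asked how each transcript differed between MII and GV oocytes. Averaged over the 3 strains, 8 of the 10 genes fell and 2 rose (edgeR's quasi-likelihood test with batch as a term, Benjamini-Hochberg adjusted p under 0.05). Of all genes tested, 51.9% passed this test, 22.9% higher and 29% lower, so a change between the stages was common. The median log2 change over the 10 genes was -1.07, and over all genes tested it was -0.06. CPM is a share of the library, and in a bulk pool fewer cells of a type and less RNA per cell cannot be told apart.

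All 4 alpha genes fell, and each by more than 5 of the 6 beta genes. Tuba1c had 126, 297 and 489 CPM as its lowest, median and highest value over the 16 GV libraries and 29.3, 64.9 and 172 CPM over the 16 MII libraries. The lowest GV library was above 14 of the 16 MII libraries, and within each batch the stages did not overlap. Its log2 change was -1.70 ± 0.09 (SE, adjusted p = 6.29e-17).

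Tuba1a ranged from 61.0 to 278 CPM in GV and from 24.9 to 108 CPM in MII, a log2 change of -1.55 ± 0.10 (adjusted p = 2.39e-15). Tuba1b ranged from 92.6 to 340 CPM in GV and from 27.0 to 117 CPM in MII, a log2 change of -1.58 ± 0.10 (adjusted p = 2.56e-15). The summed reads of Tuba1a, Tuba1b and Tuba1c, which do not depend on how reads were split among them, fell by 1.62 ± 0.09 on the log2 scale (adjusted p = 2.24e-16).

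Tuba4a, the alpha gene whose reads are almost all its own, had 71.0, 153 and 208 CPM as lowest, median and highest value in GV and 30.8, 50.4 and 74.5 CPM in MII. The stages were separate in each batch, and the lowest GV library was above 15 of the 16 MII libraries. Its log2 change was -1.23 ± 0.10 (adjusted p = 1.03e-12). The fall of the alpha genes was thus present in a gene with unshared reads as well as in the Tuba1 group.

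The beta genes did not move as a block. Tubb2a fell most: its lowest, median and highest values were 156, 230 and 401 CPM in GV and 48.1, 83.4 and 113 CPM in MII, so that the 16 libraries of one stage did not overlap the 16 of the other. The log2 change of Tubb2a was -1.33 ± 0.08 (adjusted p = 3.51e-15). Its close copy Tubb2b fell by 0.83 ± 0.08 on the log2 scale (adjusted p = 1.33e-10), from a GV range of 196 to 446 CPM to an MII range of 105 to 199 CPM. Their summed reads fell by 1.02 ± 0.07 (adjusted p = 3.34e-14).

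Tubb5, the class I beta tubulin found in most dividing cells, had 45.8, 79.3 and 150 CPM as lowest, median and highest value in GV and 27.1, 36.5 and 48.3 CPM in MII. The 2 stages were separate in batch 1 and overlapped in batch 2. Tubb5 fell by 0.90 ± 0.09 on the log2 scale (adjusted p = 7.65e-10).

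Tubb4b, a widely expressed isotype also used in cilia, changed least among the genes that fell, from 606 CPM (median, range 438 to 932) in GV to 416 CPM (range 278 to 610) in MII. Its log2 change was -0.35 ± 0.09 (adjusted p = 0.00192). That change lay in batch 1, at -0.67 ± 0.11 (adjusted p = 2.66e-05), whereas batch 2 alone gave -0.05 ± 0.09 (adjusted p = 0.764).

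Tubb3, the class III isotype known as a marker of neurons, moved the other way. In B6, GV libraries had 112, 119, 166, 29.6 and 35.8 CPM, and MII libraries had a lowest, median and highest value of 108, 145 and 210 CPM. D2 GV libraries had 54.0, 59.2, 80.7, 22.3 and 28.7 CPM, and D2 MII libraries had 72.1, 83.8, 86.7, 58.1 and 41.0 CPM. In F1 the GV values were 48.4, 83.5 and 102 CPM (lowest, median, highest) and the MII values were 125, 130, 123, 94.8 and 99.3 CPM.

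The GV and MII libraries of a strain overlapped in Tubb3 when batches were pooled, and each list above gives batch 1 first. Within batch 1 the stages still overlapped in B6 (lowest MII 157 CPM, highest GV 166 CPM) and D2 (72.1 and 80.7 CPM), and not in F1. Within each batch every strain's mean was higher in MII. Averaged over strains, Tubb3 rose by 0.90 ± 0.12 on the log2 scale (adjusted p = 8.06e-08), with 0.59 ± 0.11 in batch 1 (adjusted p = 9.73e-05) and 1.33 ± 0.12 in batch 2 (adjusted p = 8.43e-07). None of the 14 other settings and none of the 32 fits without 1 library ended that call.

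Tubb6, a class V isotype, had nearly the same range in both stages, 194 to 941 CPM in GV and 250 to 803 CPM in MII. It divided by batch: GV libraries had 279 ± 44.9 CPM in batch 1 (SD, n = 9) and 668 ± 155 CPM in batch 2 (n = 7), and MII libraries had 299 ± 35.8 CPM in batch 1 (n = 9) and 602 ± 117 CPM in batch 2 (n = 7). The model with batch as a term gave a rise of 0.22 ± 0.08 on the log2 scale (adjusted p = 0.0282). That call was not stable. Batch 2 alone gave -0.00262 ± 0.10 (adjusted p = 1), batch 1 alone 0.30 ± 0.10 (adjusted p = 0.018), and the call was lost in 9 of the 32 fits without 1 library, with an adjusted p of up to 0.104. Those libraries were B6 GV numbers 2, 4 and 5, F1 GV numbers 2 and 5, D2 GV number 4 and B6 MII number 3 of batch 1, and D2 GV number 1 and B6 MII number 2 of batch 2.

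**Figure D2:**
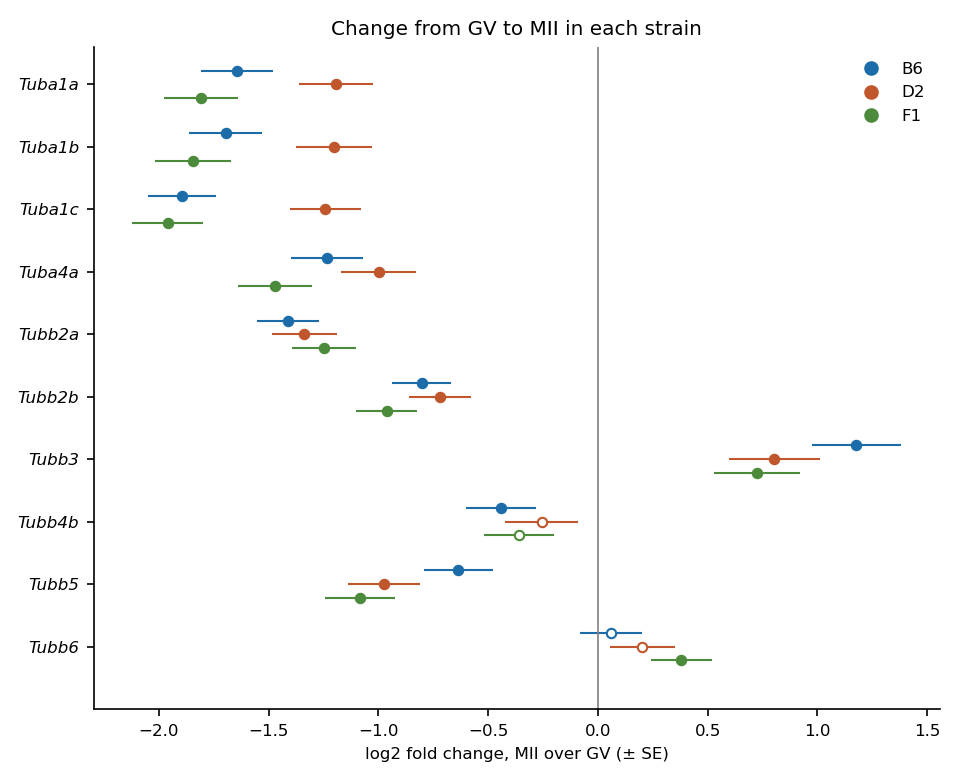
Log2 fold change from GV to MII (x axis, bars ± SE) for each of the 10 genes in B6, D2 and F1 oocytes, with filled points where the adjusted p was under 0.05. Tubb3 lies right of 0 in all 3 strains, the alpha genes lie between -0.998 and -1.96, and open points are left for Tubb4b in D2 and F1 and for Tubb6 in B6 and D2.

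Within single strains, 9 of 10 genes were called in B6, 1 higher and 8 lower, against 26.7% of all genes tested (10.3% higher and 16.4% lower). In D2 there were 8, with 1 higher and 7 lower, against 28.7% (13.1% and 15.6%), and in F1 9, with 2 higher and 7 lower, against 32.9% (14.9% and 18%). Tuba1a, Tuba1b, Tuba1c, Tuba4a, Tubb2a, Tubb2b and Tubb5 fell in each strain. The Tubb5 calls did not hold in any strain with the level of granulosa cell markers as a covariate. There B6 went from -0.64 ± 0.16 to -0.12 ± 0.18 (adjusted p = 0.785), D2 from -0.97 to -0.46 (adjusted p = 0.127) and F1 from -1.08 to -0.48 (adjusted p = 0.143). That marker level was higher in most GV libraries than in any MII library, so the fit cannot fully tell it apart from stage. In batch 2 alone Tubb5 was not called in B6 either (-0.20 ± 0.18, adjusted p = 0.541). Tubb3 rose in each, by 1.18 ± 0.20 in B6 (adjusted p = 5.18e-05), 0.80 ± 0.21 in D2 (adjusted p = 0.00393) and 0.72 ± 0.20 in F1 (adjusted p = 0.00448). In D2 the Tubb3 call was absent from batch 1 alone (0.46 ± 0.18, adjusted p = 0.086). Tubb4b was called in B6 (-0.44 ± 0.16, adjusted p = 0.0375) and not in D2 (-0.26 ± 0.17, adjusted p = 0.261) or F1 (-0.36 ± 0.16, adjusted p = 0.0818), and 14 of 32 fits without 1 library ended the B6 call, with an adjusted p of up to 0.264. They left out B6 GV numbers 2, 4 and 5, B6 MII numbers 1, 2 and 3, D2 GV numbers 3, 4 and 5, F1 GV number 3 or F1 MII number 4 of batch 1, or B6 MII number 1, D2 GV number 1 or F1 GV number 2 of batch 2. Tubb6 was called in F1 (0.38 ± 0.14, adjusted p = 0.0351), and not in B6 or D2, and the F1 call ended without B6 GV number 5, F1 GV number 2 or 5 or F1 MII number 3 or 5 of batch 1, or F1 GV number 3 of batch 2.

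The stage change itself was compared between strains with an interaction term. Tuba1c fell by 1.89 ± 0.16 in B6 and 1.24 ± 0.16 in D2, a difference of 0.65 ± 0.22 that did not pass (adjusted p = 0.323). For Tuba1a and Tuba1b the differences were 0.45 ± 0.23 and 0.49 ± 0.24 (adjusted p = 0.549 and 0.513). None of the 10 genes had a stage change that differed between D2 and B6, with 2 at an unadjusted p under 0.05, where 0.105% of all genes tested were called (0.0474% higher and 0.0579% lower). None differed between F1 and the mean of its parents, with 1 at an unadjusted p under 0.05 and 0.00526% of all genes called. DESeq2 and limma-voom also called 0 of the 10 in both comparisons.

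Follicle cell markers were higher in most GV pools than in MII pools, by an amount that differed between pools. The 25 granulosa and cumulus markers summed to between 184 and 4357 CPM over GV libraries and between 99.2 and 189 CPM over MII libraries. Most of the MII sum came from Nr5a2 and Cyp19a1, at 75.5 and 29.1 CPM over the pooled MII reads. Over the pooled GV reads these 2 genes had 119 and 33.1 CPM. The GV libraries B6 number 1 and F1 number 1 of batch 2, at 184 and 189 CPM, were within the MII range, and the other 14 lay above it. Inha, an inhibin subunit made by granulosa cells, had 67.3 CPM over the pooled GV reads and 0.212 CPM over the pooled MII reads, and Foxl2 was at 0 in all 16 MII libraries. Of 23 such markers tested, 18 fell and 2 rose, where 29% of all genes tested fell and 22.9% rose. Markers of stroma and blood summed to 22.7 to 786 CPM in GV and 32.2 to 76.6 CPM in MII, and 13 fell and 1 rose among the 17 tested. Most of that MII sum came from Pecam1, at 45.4 CPM over the pooled MII reads and 38.5 CPM over the pooled GV reads.

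Follicle cells also contain tubulins, so the members were set beside that marker level. In the 3 batch 2 GV libraries lowest in granulosa markers (B6 number 1, F1 number 1 and D2 number 2) Tuba1c stood at 126, 218 and 268 CPM, above the 92.2 CPM that was the highest of the 7 batch 2 MII libraries. Tuba1a, Tuba1b, Tuba4a, Tubb2a and Tubb2b were also above every batch 2 MII library in all 3. The margin was narrow for Tuba1a in B6 number 1, at 61.0 CPM against up to 58.6 CPM in MII. Tubb5 stood at 45.8, 55.4 and 54.6 CPM there, against 66.1 to 71.3 CPM in the other 4 batch 2 GV libraries and up to 47.6 CPM in MII, so it was low where the granulosa markers were low. In B6 number 1 Tuba1a, Tuba1b and Tuba1c were also below those other 4 libraries, which had 181 to 289 CPM of Tuba1c. In F1 number 1 and D2 number 2 the Tuba1 genes lay within the range of those 4.

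With the granulosa level as a covariate, the log2 changes were -1.52 for Tuba1c, -1.14 for Tuba1a, -1.15 for Tuba1b, -1.16 for Tuba4a, -1.80 for Tubb2a, -0.999 for Tubb2b and 1.11 for Tubb3, all still called. Without it the alpha genes had larger changes, at -1.70 for Tuba1c, -1.55 for Tuba1a, -1.58 for Tuba1b and -1.23 for Tuba4a. Changes were smaller without it for Tubb2a (-1.33), Tubb2b (-0.83) and Tubb3 (0.90). Tubb5 shrank to -0.36 ± 0.15 (adjusted p = 0.133), Tubb4b to -0.21 ± 0.18 (adjusted p = 0.531) and Tubb6 to -0.03 ± 0.16 (adjusted p = 0.945). Most GV libraries lay above the MII range of these markers, so stage and granulosa level cannot be fully told apart in this fit. The SE of Tubb4b was 0.09 without the covariate and 0.18 with it. The part of follicle cell RNA in the change of any member was not tested beyond this fit.

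These changes altered the make-up of the beta tubulin reads, taken per kb within each library. Tubb3 made up 4.89% ± 2.45 of them in GV (SD, n = 16) and 11.1% ± 4.41 in MII. Tubb2a went from 17.9% ± 2.41 to 9.24% ± 2.48, and Tubb2b from 16.7% ± 2.44 to 11.9% ± 2.76. The share of Tubb4b over both batches was 36.1% ± 4.68 in GV and 35.6% ± 3.47 in MII, but it moved in opposite ways within them. It went from 38.9% ± 3.83 in GV to 33.4% ± 2.24 in MII within batch 1. Within batch 2 it went from 32.4% ± 2.79 to 38.5% ± 2.48. The share of Tubb6 was 15.1% ± 2.41 in GV and 25.2% ± 2.44 in MII within batch 1, and 29.6% ± 4.43 and 36.4% ± 2.42 within batch 2. Among the alpha reads the make-up moved less: Tuba4a went from 10.2% ± 2.21 to 13.0% ± 2.87, Tuba1a from 26.0% ± 1.79 to 26.3% ± 1.36 and Tuba1c from 32.5% ± 1.62 to 29.6% ± 2.66.

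**Figure D3:**
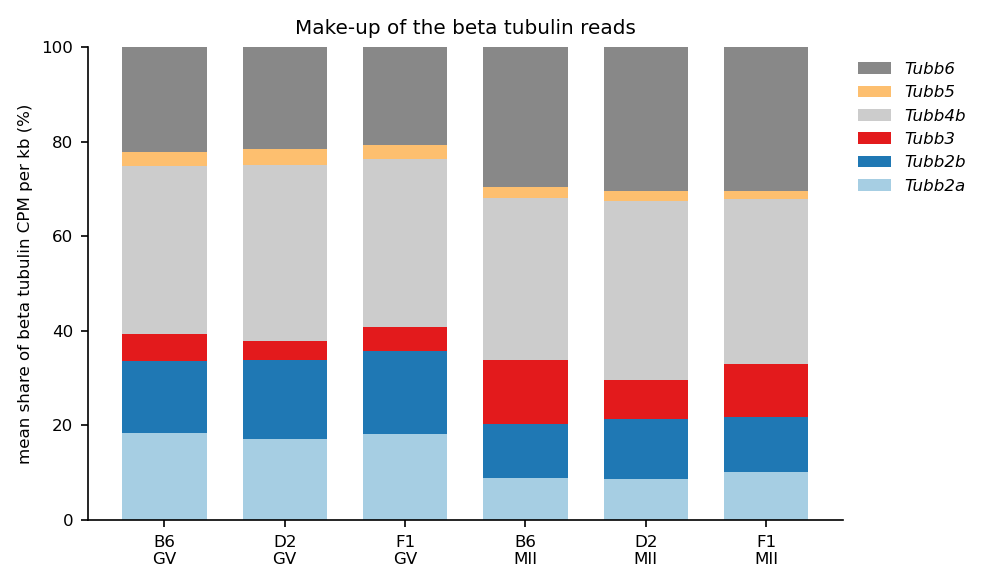
Mean share of each beta tubulin gene in the beta tubulin CPM per kb (stacked bars adding to 100%) for the 6 groups of libraries. Tubb3 takes 4.03% to 5.58% in the GV groups and 8.12% to 13.5% in the MII groups, and Tubb2a takes 17.1% to 18.3% and 8.57% to 10.2%.

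Because alpha and beta subunits are used in equal numbers, the summed CPM of the 4 alpha genes was set over that of the 6 beta genes in each library. This ratio was added after the values were seen and is given as a description without a test. It uses CPM and not CPM per kb, and its Tuba1 and Tubb2 reads are partly shared with other genes. It also leaves out Tuba3a and Tuba3b, which differed between the parental strains in the direction opposite to the Tuba1 genes. It is therefore a ratio of the reads of the listed members and no measure of the balance of subunits. It was 0.513 ± 0.199 in GV (SD, n = 16) and 0.226 ± 0.128 in MII (n = 16). In B6 it was 0.411 ± 0.185 in GV and 0.152 ± 0.0534 in MII, in D2 0.663 ± 0.181 and 0.367 ± 0.140, and in F1 0.472 ± 0.173 and 0.172 ± 0.0442. Within each batch the MII libraries of a strain all lay below its GV libraries.

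Batches shifted the alpha to beta ratio too, at 0.651 ± 0.125 in batch 1 and 0.335 ± 0.112 in batch 2 for GV (n = 9 and 7). Between strains, D2 libraries lay above B6 libraries in each batch at both stages, 1.79-fold in GV and 2.22-fold in MII as the mean of both batches. F1 libraries lay below D2 libraries in each batch at both stages, at 0.732-fold in GV and 0.502-fold in MII. F1 and B6 overlapped in MII in both batches, at a ratio of 1.11-fold, and in GV overlapped in batch 1. In terms of log2 change with stage, the alpha sum fell by 1.54 ± 0.08 and the beta sum by 0.31 ± 0.06.

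**Figure D4:**
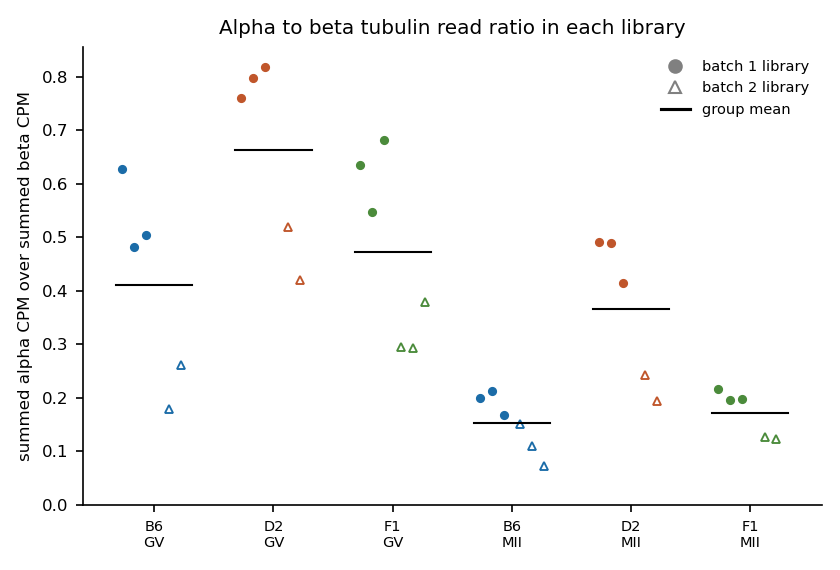
Summed alpha tubulin CPM divided by summed beta tubulin CPM (linear axis from 0) in each library of the 6 groups, with filled circles for batch 1, open triangles for batch 2 and a black line for the group mean. D2 libraries lie highest within each batch and stage, and the MII libraries of B6 and F1 lie between 0.0722 and 0.217.

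The second comparison asked which isotypes differed between the parental strains. In GV oocytes 2 of the 10 genes were called, both lower in D2 than in B6, where 20.5% of all genes tested were called (9.16% higher and 11.3% lower). Tubb2a had 230, 287, 270, 290 and 265 CPM in the B6 GV libraries and 170, 156, 200, 212 and 205 CPM in the D2 GV libraries, so every D2 library lay below every B6 library. The log2 difference of Tubb2a was -0.56 ± 0.15 (adjusted p = 0.00497). Leaving out D2 GV number 3 or number 4 of batch 1 ended the Tubb2a call (adjusted p = 0.0508 and 0.0616). In batch 2 alone Tubb2a was not called (-0.48 ± 0.22, adjusted p = 0.21).

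Tubb3, listed by library above, was lower in D2 within each batch without overlap. Its log2 difference in GV was -0.88 ± 0.21 (adjusted p = 0.00182), at -0.99 in batch 1 and -0.41 ± 0.22 in batch 2 alone (adjusted p = 0.28). The GV count depended on the settings: DESeq2 called 4 genes, adding Tuba1a and Tuba1c, both higher in D2, and limma-voom called 5, adding Tubb6, lower in D2, to those. Tuba1a was at 0.43 ± 0.17 (adjusted p = 0.0705) and Tuba1c at 0.39 ± 0.16 (adjusted p = 0.0794) in the test used here. The other GV differences were between -0.42 and 0.23.

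In MII oocytes 6 of the 10 genes were called between D2 and B6, 3 higher and 3 lower, where 26.4% of all genes tested were called, 13.4% higher and 13% lower. The 3 higher ones were the Tuba1 genes. Tuba1c had a lowest, median and highest value of 29.3, 59.3 and 76.5 CPM in B6 and 154, 172, 124, 92.2 and 79.8 CPM in D2, with no overlap. The log2 difference of Tuba1c was 1.05 ± 0.15 (adjusted p = 1.69e-06). Tuba1a and Tuba1b were higher by 0.88 ± 0.16 (adjusted p = 6.33e-05) and 0.72 ± 0.17 (adjusted p = 0.000989), and their reads summed with Tuba1c by 0.89 ± 0.15 (adjusted p = 2.37e-05).

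In batch 2 alone, with 3 B6 and 2 D2 MII libraries, the Tuba1 sum was at 0.66 ± 0.25 (adjusted p = 0.111) and only Tuba1c and Tubb3 were called. Both D2 libraries of that batch lay above all 3 B6 libraries in each Tuba1 gene. Tuba4a, with reads of its own, had 34.8, 47.7 and 65.3 CPM as lowest, median and highest value in B6 and 74.5, 62.3, 55.4, 65.3 and 48.7 CPM in D2. These overlapped, and the difference of 0.33 ± 0.16 was not called (adjusted p = 0.135).

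The 3 genes lower in D2 eggs were beta tubulins. Tubb3 was lower by 1.25 ± 0.20 on the log2 scale (adjusted p = 8.81e-06), and no D2 MII library reached the lowest B6 one. Tubb2a had 75.2, 87.8 and 113 CPM as lowest, median and highest value in B6 and 73.7, 72.9, 61.6, 59.0 and 48.1 CPM in D2, a log2 difference of -0.48 ± 0.14 (adjusted p = 0.00992). Tubb5 had 43.4, 46.0 and 48.3 CPM in B6 and 30.9, 37.4, 31.6, 28.8 and 32.1 CPM in D2, again without overlap, at -0.52 ± 0.16 (adjusted p = 0.0122). Leaving out D2 MII number 2 of batch 1 ended the Tubb5 call (adjusted p = 0.0548). The summed Tubb2a and Tubb2b reads gave -0.32 ± 0.12 (adjusted p = 0.0425), a call lost under 7 of the 14 other settings.

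Tubb3 was the member lower in D2 at both stages with no 50-base window shared with another gene of the reference transcripts. Those windows were not taken from D2 sequence. The processing notes name the same build for all strains, and its effect on strain differences was not tested. Tubb2a was lower at both stages too, though nearly 50% of its windows are shared, and Tubb2b was not called at either, at -0.33 ± 0.14 in GV (adjusted p = 0.103) and -0.24 ± 0.14 in MII (adjusted p = 0.194). Tubb4b and Tubb6 were not called between the parental strains at either stage.

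Markers of granulosa cells were read beside these strain differences. They summed to 184 to 4204 CPM in B6 GV, 227 to 4357 CPM in D2 GV, 113 to 152 CPM in B6 MII and 135 to 189 CPM in D2 MII. In D2 MII oocytes 5 of 23 tested were higher and 1 lower, where 13.4% of all genes tested were higher and 13% lower. With the granulosa level as a covariate the 6 MII genes were still called, at 1.03 for Tuba1c, 0.83 for Tuba1a, 0.67 for Tuba1b, -1.28 for Tubb3, -0.42 for Tubb2a and -0.59 for Tubb5, and in GV Tubb2a was at -0.49 and Tubb3 at -0.89, both called.

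**Figure D5:**
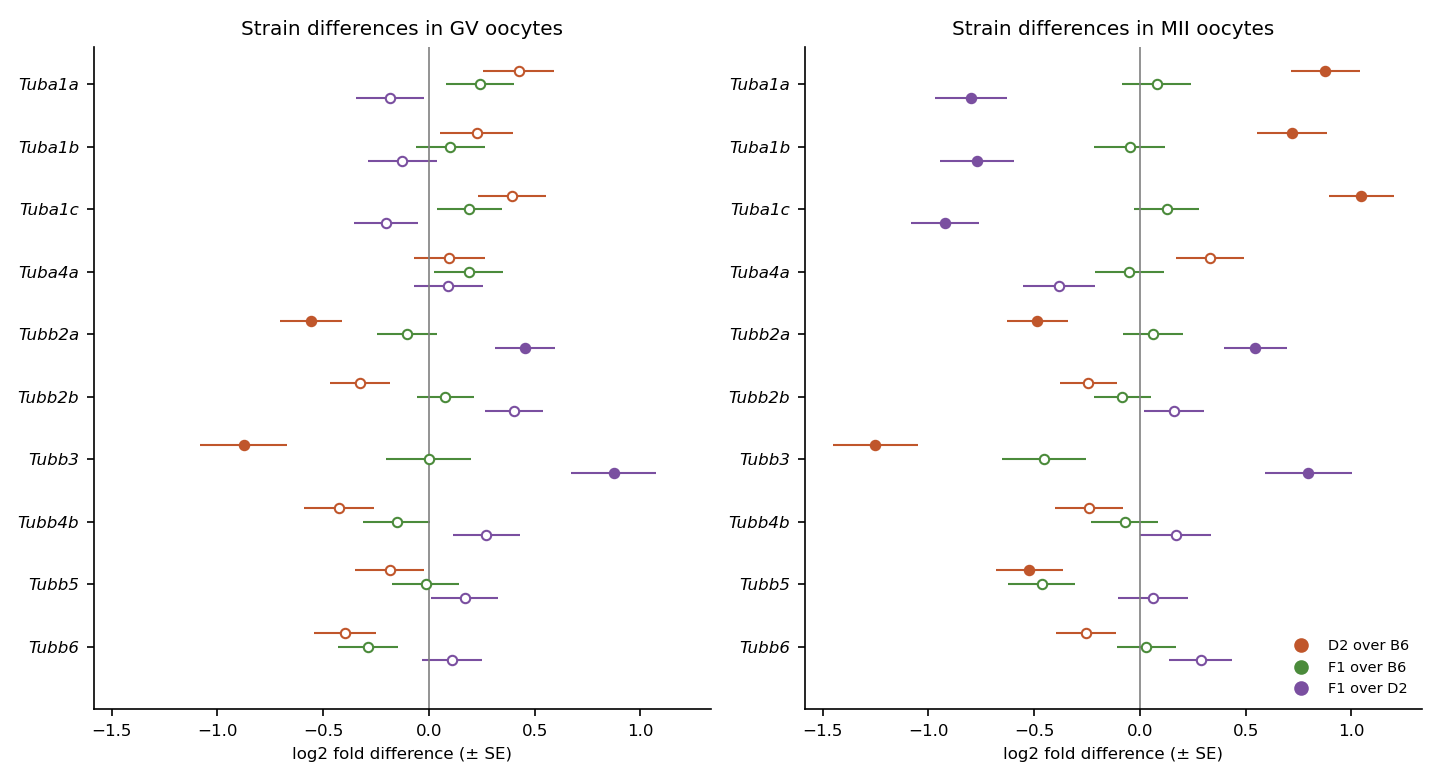
Log2 fold difference (x axis, bars ± SE) of each gene for D2 over B6, F1 over B6 and F1 over D2 in GV (left) and MII (right), with filled points where the adjusted p was under 0.05. In MII the Tuba1 genes lie right of 0 for D2 over B6 and left of 0 for F1 over D2, and every F1 over B6 point is open.

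The third comparison placed the F1 hybrid beside each parent. F1 against B6 gave 0 of 10 calls in GV, with 1 at an unadjusted p under 0.05, where 5.5% of all genes tested were called (2.83% higher and 2.67% lower), and DESeq2 and limma-voom also gave 0. F1 against B6 in MII gave 0 calls as well, with 2 at an unadjusted p under 0.05, where 7.36% of all genes were called (4.66% higher and 2.7% lower). DESeq2 gave 1 there and limma-voom 0. The closest were Tubb5 at -0.46 ± 0.16 (adjusted p = 0.0681) and Tubb3 at -0.45 ± 0.20 (adjusted p = 0.167). Tubb5 had 35.7, 37.6, 27.1, 34.9 and 31.8 CPM in the F1 MII libraries, every one of them below all 6 B6 MII libraries. Tubb3 in GV went opposite ways by batch: the 3 F1 libraries of batch 1 lay below the 3 B6 libraries, and the 3 F1 libraries of batch 2 lay above the 2 B6 libraries.

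F1 against D2 in GV gave 2 calls, both higher in F1, where 6.05% of all genes tested were called (4.07% higher and 1.97% lower). Tubb3 was higher by 0.87 ± 0.20 (adjusted p = 0.00432), and the call was lost in batch 1 alone (0.54 ± 0.18, adjusted p = 0.162). Tubb2a was higher by 0.46 ± 0.14 (adjusted p = 0.0481), a call lost under 13 of the 14 other settings and in 27 of the 32 fits without 1 library. The sum of Tubb2a and Tubb2b was at 0.43 ± 0.12 there (adjusted p = 0.0252). The call of that sum was lost under 4 of the 14 other settings, among them each batch alone. It was also lost in 13 of the 32 fits without 1 library, with an adjusted p of up to 0.196.

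In MII, F1 against D2 gave 5 calls, 3 lower and 2 higher, where 8.11% of all genes tested were called (4.92% higher and 3.2% lower). Tuba1c had 68.4, 72.8, 61.4, 58.8 and 53.4 CPM in F1, every library below the lowest D2 one, at -0.92 ± 0.16 (adjusted p = 0.000124). Tuba1a and Tuba1b were lower by 0.80 ± 0.17 (adjusted p = 0.0015) and 0.77 ± 0.17 (adjusted p = 0.00287) on the log2 scale, and the Tuba1 sum was at -0.84 ± 0.16 (adjusted p = 0.000467). In batch 2 alone, with 2 libraries of each group, that sum was at -0.48 ± 0.28 (adjusted p = 0.526).

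The 2 members higher in F1 eggs than in D2 eggs were Tubb3, at 0.80 ± 0.21 (adjusted p = 0.0105), and Tubb2a, at 0.55 ± 0.15 (adjusted p = 0.0149). Every F1 library lay above every D2 library in both. Tubb2a lost the call without D2 MII number 1 or number 2 of batch 2 (adjusted p = 0.0506 and 0.0605). Tubb2b was at 0.16 (adjusted p = 0.563), and the summed Tubb2a and Tubb2b reads, which do not depend on the split between them, were not called (0.29 ± 0.12, adjusted p = 0.158). The comparisons of F1 with D2 and of D2 with B6 share the D2 libraries, so their calls are not independent.

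Against the mean of the parental log2 levels, 0 of 10 genes were called in F1 GV oocytes, with 2 at an unadjusted p under 0.05, where 0.879% of all genes tested were called (0.831% higher and 0.0474% lower). In F1 MII oocytes 0 of 10 were called, with 4 at an unadjusted p under 0.05, where 1.16% of all genes were called (1.01% higher and 0.147% lower), and DESeq2 and limma-voom also gave 0 at both stages. The lowest adjusted p in MII belonged to Tuba1c, at -0.40 ± 0.14 (adjusted p = 0.207).

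The other tubulin genes were listed for comparison. Of 10, 9 were tested, and 2 fell and 4 rose from GV to MII, where 29% of all genes tested fell and 22.9% rose. The fall was in Tuba3a (-1.82 ± 0.11, adjusted p = 5.89e-16) and Tuba3b (-2.56 ± 0.14, adjusted p = 2.01e-16), alpha isotypes best known from testis that share 32.4% of the windows of Tuba3a and 27.4% of those of Tuba3b. Gamma tubulins Tubg1 (0.34) and Tubg2 (0.26), which nucleate microtubules, rose, as did Tube1 (0.41), the epsilon tubulin of centrioles, and Tubal3 (0.41). Tubd1, delta tubulin, was at -0.41 ± 0.21 (adjusted p = 0.0955). Tuba8 and Tubb4a had group means of at most 1.14 CPM and were not called, and Tubb1, the platelet isotype, was at or below 0.073 CPM in every library.

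Tuba3a and Tuba3b also differed between the parental strains, in the direction opposite to the Tuba1 genes. In GV oocytes Tuba3a had 120 ± 46.9 CPM in B6 (SD, n = 5), 31.9 ± 14.1 in D2 (n = 5) and 70.9 ± 19.1 in F1 (n = 6). The log2 difference of D2 from B6 was -1.95 ± 0.19 in GV (adjusted p = 4.77e-10) and -1.49 ± 0.19 in MII (adjusted p = 7.27e-08). Tuba3b was lower by 1.68 ± 0.25 and 1.05 ± 0.24, and Tubd1 by 2.05 ± 0.38 and 2.33 ± 0.38. Tubal3 was higher in D2 at both stages, by 0.53 ± 0.18 and 0.66 ± 0.17.

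Genes that act on tubulin were counted by role, beside all genes tested, of which 22.9% rose and 29% fell from GV to MII. Of 21 tested genes for tubulin folding, which hold and assemble the dimer, 16 fell and 1 rose from GV to MII, with a median log2 change of -0.84. Pfdn5, a prefoldin subunit (-2.51 ± 0.12), Cct3, a subunit of the chaperonin that folds tubulin (-1.43 ± 0.11), and the cofactors Tbcb (-1.47 ± 0.13) and Tbca (-0.98 ± 0.10) fell, and Pfdn4 was the gene that rose (0.41 ± 0.06). Of 25 tested microtubule-binding proteins 13 rose and 1 fell, with a median of 0.25. Mapre2 (0.45 ± 0.06), Mapre1 (0.47 ± 0.07), Clip1 (0.44 ± 0.06) and Clasp2 (0.42 ± 0.06), which track or stabilise growing plus ends, were among those that rose, and Stmn1, which sequesters dimers, fell (-0.87 ± 0.16).

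The 3 autoregulation genes went different ways, with Scaper rising by 0.53 ± 0.07, Cnot11 falling by 0.17 ± 0.07 (adjusted p = 0.0377) and Ttc5 not called. Of 24 tested genes for tubulin modification 5 rose and 5 fell, which is not above the 22.9% that rose and 29% that fell among all genes tested. Ttll5 (0.67 ± 0.07) and Ttll4 (0.34 ± 0.06), which add glutamates to the tail, and Agtpbp1 (0.58 ± 0.06), which removes them, rose, and Ttll10, a glycylase (-0.73 ± 0.15), fell.

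Between the parental strains the same 4 lists had calls in both directions. Of all genes tested 20.5% were called in GV and 26.4% in MII. Among 25 tested microtubule-binding proteins 4 were higher and 7 lower in D2 GV oocytes, and 8 higher and 6 lower in D2 MII oocytes. Spast, which severs microtubules, was at -0.90 ± 0.11 and Clip1 at -0.69 ± 0.10 in GV, and in MII Map1b was at -0.84 ± 0.11 and Map1s at 1.64 ± 0.23. For folding, with 21 tested, 1 was higher and 3 lower in GV, with Cct4 at 0.78 ± 0.19 and Cct8 at -0.49 ± 0.14, and 2 were higher and 2 lower in MII, with Cct4 at 1.04 ± 0.18 and Cct3 at 0.57 ± 0.18. For modification, with 24 tested, 5 were higher and 1 lower in GV, with Agbl2 at 2.54 ± 0.43 and Ttll10 at -1.46 ± 0.27, and 4 higher and 2 lower in MII, with Ttll12 at 2.33 ± 0.23 and Agbl2 at 2.32 ± 0.39. Of the autoregulation genes Scaper was lower in D2 at both stages (-0.45 ± 0.12 and -0.36 ± 0.12), and Ttc5 was higher in GV (1.02 ± 0.35).

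How the members varied together over the 32 libraries was described by Pearson correlations of log2 CPM after batch means were removed, without a test, since libraries of one group share their stage and strain. Tuba1a, Tuba1b and Tuba1c correlated at 0.99 with one another and at 0.93 to 0.94 with Tuba4a. Within groups, where stage and strain no longer contribute, the Tuba1 genes still correlated at 0.91 to 0.97, and Tuba1a with Tuba4a at 0.19. Tuba1a, Tuba1b and Tuba1c share 72.9%, 73.8% and 61.0% of their 50-base windows with another gene, and Tuba4a 1.1%. The part of shared reads in these correlations was not tested. Tubb2a and Tubb2b correlated at 0.93 overall and at 0.23 within groups. Tubb3 correlated negatively with each alpha gene, between -0.47 and -0.64, but within groups these values were 0.16 to 0.28. Tubb6 had no overall correlation with another member beyond 0.23 in size, while within groups it correlated at 0.61 with Tubb4b, 0.58 with Tubb2b and 0.35 with Tubb3.

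Among 9017 other genes at 5 CPM or more, the pattern nearest to Tuba1a, Tuba1b and Tuba1c was that of Khdc3, a subcortical maternal complex gene (r = 0.97, 0.96 and 0.97), followed by ribosomal protein genes such as Rpl18, Rpl34 and Rps3. Ribosomal protein genes were also nearest to Tuba4a (Rps10, Rpl18 and Rps12l1, r = 0.96 to 0.97). Ptma (r = 0.95) and Rpl28, also a ribosomal protein gene (r = 0.94), were among those nearest to Tubb5. Tubb2a was nearest to Tacc3, a spindle protein, Zar1, an oocyte mRNA-binding protein, and Gtf2h5 (r = 0.95 to 0.96), and Tubb2b to Timm9, Zp2 and Tacc3 (r = 0.92). For Tubb3 the nearest were Cit, a cytokinesis kinase, Gatad2a and Efnb2 (r = 0.87 to 0.90), and for Tubb4b they were Atp6ap1, Atp9a and Fkbpl (r = 0.86 to 0.87). Tubb6 had no near pattern above 0.74, that of Ctsh, followed by Shank2 and Srrm2.

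The end of the transcript was searched for the cytoplasmic polyadenylation element, a short U-rich motif near the 3′ end that in oocytes marks mRNAs for polyadenylation during maturation. The motif was sought as TTTTAT or TTTTAAT on the sense strand of the last 100 bases, where 18.2% of 17768 transcripts hold it. It was found in Tubb2b, which fell, and in Tubb3, which rose, and in none of the other 8 members. The match began 31 bases from the end in Tubb2b and 94 in Tubb3. A polyadenylation hexamer, AATAAA or ATTAAA, was absent from the same stretch in Tuba1b, Tuba4a and Tubb2b, where 81.2% of transcripts hold one. Whether the annotated ends are those used in oocytes was not tested. The matches are shown with the motif in capitals, within 30 bases of each transcript. They are matches of letters, and no binding was measured.
Tubb2b: aagttatatcatTTTTATgatgctgggaat
Tubb3: gtctgtTTTTATggtttgttttgttttttt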

How the data were processed

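The authors deposited read counts per NCBI gene for all 32 libraries. Per the submitters' processing notes, HISAT2, SAMtools, featureCounts (Subread 1.5.1), DESeq2 1.16.1 and the build GRCm38.p4 were used, and strand and multi-mapping settings are not given in the sources used here. Of 37444 table entries 3 named no gene and were left out (at most 0.019% of a library).

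Counts were tested with edgeR 4.0.16 (robust quasi-likelihood test, filterByExpr, TMM scaling, 6 groups and batch, Benjamini-Hochberg over 19003 genes in each of 14 contrasts, threshold 0.05, two-sided) in R 4.3.3. Summed counts were appended to a second fit. Each library pools oocytes of 1 mother, so p-values measure the spread between such pools. The procedure was tested on simulated data. CPM used total counts. Correlations used log2 CPM with a prior count of 3. Alternatives used DESeq2 1.42.0 and limma 3.58.1. Figures were drawn with matplotlib 3.10.9.

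The genes and lists were chosen with earlier results of these data known. Besides the 10 genes, the text names every other tubulin, up to 4 called genes of a list by adjusted p from GV to MII and up to 2 per stage between D2 and B6, at 5 CPM or more, and the 3 nearest patterns per gene. Pfdn4 and Stmn1 were named after their values were seen, as the 1 gene of their list that went the other way, and the ratio of alpha to beta CPM and the levels per kb within batches were added then too. One of the nearest genes and some coding sequence ends are not reported here.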

Additional observations from a re-analysis of the deposited data

Results flagged for a closer look

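In 6 of the 60 sets formed by 1 gene and 1 group of libraries, a single library stood apart from the others by its gap to the nearest one. In sets without batches chance alone marks about 1 in 20. These sets pool both batches, which differ in level for some genes, so that rate need not hold here. Library number 3 of batch 2 in B6 MII was lowest in 3 related genes, at 24.9 CPM for Tuba1a, 27.0 for Tuba1b and 29.3 for Tuba1c, where the other B6 MII libraries had at least 41.3, 54.7 and 58.7 CPM. These 3 genes share reads and are not independent. Tubb2b was lowest at 196 CPM in D2 GV number 4 of batch 1, where the others had 268 to 301 CPM, and lowest at 105 CPM in D2 MII number 1 of batch 2, where the others had 140 to 148 CPM. Tubb4b was highest at 932 CPM in B6 GV number 5 of batch 1, where the others had 593 to 657 CPM.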

How the results depend on the processing

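Counts of called genes from GV to MII stayed within 1.5 times under all alternatives, and without 1 library they ranged from 9 to 10 for the mean of strains, 8 to 9 in B6, 8 to 8 in D2 and 8 to 10 in F1. D2 against B6 in GV, with 2 calls, gave 4 with median-of-ratios scaling, no filter, a filter of 1 CPM in 16 libraries or DESeq2. It gave 5 with limma-voom and 1 in batch 2 alone (2 to 4 without 1 library). The call in batch 2 alone was Tubb6, lower in D2 (-0.78 ± 0.19, adjusted p = 0.0141), and neither Tubb2a nor Tubb3 was called there. In MII the 6 calls of D2 against B6 became 2 in batch 2 alone (5 to 6 without 1 library). F1 against B6 in GV, with 0, gave 1 in batch 2 alone (0 to 0), and in MII, with 0, gave 1 with upper quartile scaling, the filter of 1 CPM, DESeq2, the granulosa covariate or without the 3 GV libraries lowest in granulosa markers, and 2 with only the groups compared (0 to 1). F1 against D2 in GV, with 2, gave 0 in batch 1 alone or with no batch term and 1 under 10 other settings (1 to 3), and in MII, with 5, gave 1 in batch 2 alone and 3 with no batch term (4 to 5). F1 against mid-parent, with 0, gave 1 in batch 2 alone for GV and 1 in batch 1 alone for MII (0 to 0 for both), and both stage-by-strain comparisons kept 0.

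Signs turned for Tubb6, MII against GV, mean of strains (-0.00262 in batch 2 alone, -0.0298 with the granulosa covariate), for Tubb6, MII against GV in B6 (-0.31 and -0.17, and -0.00852 and -0.0567 without B6 MII number 2 of batch 2 or B6 GV number 2 of batch 1) and for the same gene in D2 (-0.0254 with the covariate), for Tubb4b in F1 (0.13 in batch 2 alone), and between D2 and B6 in GV for Tuba4a (-0.0161 in batch 1 alone, -0.0176 without B6 GV number 2 of batch 2) and Tubb5 (0.11 in batch 2 alone). The cause was not tested.

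Replicate numbers were not used to pair the samples. Deviations from the group and batch means correlated over 0.1 in 2 of 11 same-numbered GV and MII pairs and in 7 of 32 other pairs. With 2 or 3 libraries behind each such mean the deviations are tied to one another, so these counts cannot show whether the numbers pair samples. A fit with the replicate block gave 5 calls for D2 against B6 in GV and 1 for F1 against D2 in GV, and 10, 8, 8 and 9 from GV to MII over strains, in B6, D2 and F1. Depth did not limit detection of any of the 10 genes.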
